A study of Bos taurus with 6 samples.

Results

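Transcripts of the contractile actin cytoskeleton and of the simple epithelial keratins were followed in cumulus cells of the cow, which surround the oocyte inside the ovarian follicle. The 10 genes considered were TAGLN, CNN1, ACTA2, MYL9, MYLK, TPM1, TPM2, CALD1, KRT8 and KRT18, and each was read from every probe set whose annotation names it as its only gene. A probe set was found for 9 of the 10 genes, out of 9155 genes named on the array, and MYL9 was not analysed here. The 9 genes had 12 probe sets, since MYLK, TPM1 and TPM2 had 2 each. The genes were chosen by name from results of the same comparison of follicle sizes that is described here. Their values and calls are therefore given as a description, and no p-value is printed for a member.

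The cells were stripped mechanically from cumulus-oocyte complexes of crossbred cows (Bos indicus x Bos taurus) whose ovaries came from slaughter, and RNA of pooled cells was measured on bovine Affymetrix arrays. The large-follicle group (3 arrays) held complexes that the submitters call competent, from follicles at least 8 mm wide. The small-follicle group (3 arrays) held complexes they call incompetent, with a follicle width of 1 to 3 mm. The titles number these groups treat1 and treat2, and the labels name no agent given to either. The labels name neither the cows' age nor how many cows or complexes made up a pool, so the spread between replicates, and each p-value, is that between these pools. Values are log2 signals, so a difference of 1 is a doubling, and signals of different probe sets are not on a common scale of abundance.

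The contractile apparatus works by sliding myosin along actin filaments. MYLK, the myosin light chain kinase, phosphorylates the regulatory light chain of myosin and so switches contraction on. Tropomyosins (TPM1, TPM2) lie along the actin filament and gate the access of myosin, calponin (CNN1) and caldesmon (CALD1) bind actin and restrain the motor, and transgelin (TAGLN) bundles actin. ACTA2 is the smooth muscle isoform of actin, and many of these genes are known targets of the serum response factor SRF. KRT8 and KRT18 encode keratins of simple epithelia, which polymerise only as a pair of an acidic and a basic partner. Granulosa-lineage cells are epithelial cells, and the theca is the follicle layer that holds smooth muscle-like cells.

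Of 11 granulosa and cumulus markers, 10 had a mean above that of at least 77.9% of probe sets, and FOXL2, a transcription factor of granulosa cells, was dim, at 37.7%. The mean of 11 granulosa and cumulus markers lay between 10.89 and 11.04 in large-follicle arrays and between 10.34 and 10.50 in small-follicle arrays. In a fit of all 24016 probe sets with limma, 3094 probe sets, 12.9%, passed a Benjamini-Hochberg adjusted threshold of 0.05, with 5.72% higher and 7.16% lower in large-follicle arrays. The groups did not overlap in 30.9% of probe sets. A measure tied to RNA quality, the mean log2 signal of 3' minus 5' probe sets of 6 control transcripts, moved with the groups. This index was 2.15, 1.77 and 2.01 in large-follicle replicates 1, 2 and 3 and 2.68, 2.53 and 2.16 in small-follicle replicates 1, 2 and 3, so that it was lower in every large-follicle array (2-sided exact permutation p = 0.1, and 3 arrays against 3 can give none smaller).

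Against this background, 3 of the 12 probe sets passed the threshold as higher in large-follicle arrays (KRT18, TAGLN and CNN1) and 1 as lower, the brighter probe set of MYLK. The groups did not overlap in 5 of the 12, these 4 and the dimmer probe set of MYLK. The members were proposed with these differences in view, so their share is not read against the 12.9%. The median difference of the 12 probe sets was 0.28, and for the same reason it is not read against the 0.01 of all probe sets tested. Once the index entered the fit, the median was -0.04 for the 12 probe sets and 0.04 for all.

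**Figure D1:**
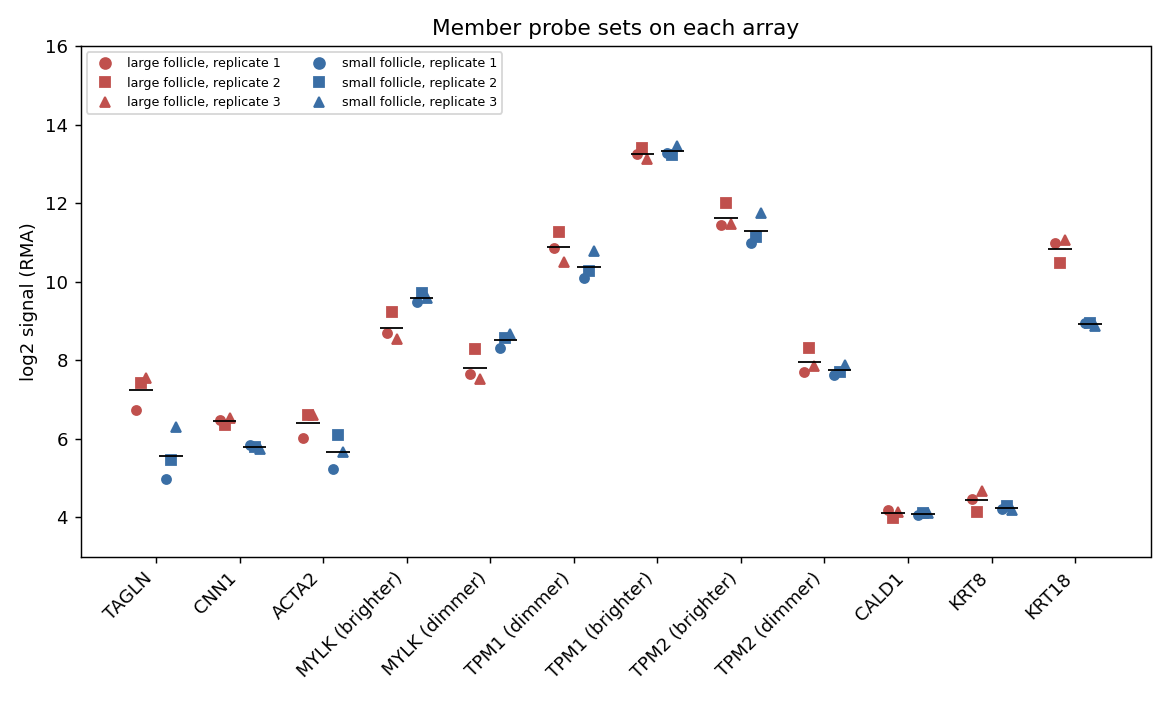
Log2 signal (vertical axis) of the 12 probe sets on each of the 6 arrays, with large-follicle arrays in red, small-follicle arrays in blue, symbols for replicates and a black line at each group mean. KRT18 stands clear of its small-follicle values on every large-follicle array, TAGLN and CNN1 do so with narrower gaps, MYLK lies the other way, and the tropomyosins overlap.

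KRT18, the acidic keratin of simple epithelia, showed the widest gap between follicle sizes. Its signal was 10.98, 10.48 and 11.05 in large-follicle replicates 1, 2 and 3 and 8.95, 8.95 and 8.87 in small-follicle replicates 1, 2 and 3. The small-follicle arrays were nearly identical, the large-follicle arrays spread over 0.57, and the lowest large-follicle array lay 1.53 above the highest small-follicle array. The means were 10.84 ± 0.31 and 8.92 ± 0.05 (SD, n = 3 each), a log2 difference of 1.91 ± 0.15 (SE), or 3.77-fold. Leaving out each array in turn moved the difference only from 1.81 to 2.09, and it was 2.20 ± 0.22 in the fit that adds the 3' minus 5' index.

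KRT8, the basic partner of KRT18, did not show such a gap. It read 4.48, 4.14 and 4.68 in large-follicle arrays and 4.22, 4.28 and 4.19 in small-follicle arrays, a difference of 0.20 ± 0.14 (SE). Large-follicle replicate 2 lay below all 3 small-follicle arrays, so the groups overlapped. The probe set is dim: only 32.2% of all probe sets had a lower mean, and RMA values carry no detection call. The values therefore do not show that KRT8 was unchanged, and the 95% interval of the difference ran from -0.12 to 0.52. KRT8 and KRT18 are next to each other in the bovine genome, with 0 protein-coding genes between them in the RefSeq annotation of ARS-UCD2.0.

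TAGLN, the actin-bundling transgelin, read 6.73, 7.43 and 7.56 in large-follicle replicates 1, 2 and 3 and 4.98, 5.45 and 6.29 in small-follicle replicates 1, 2 and 3. Every large-follicle array was above every small-follicle array, by 0.44 at the narrowest point, but small-follicle arrays spread over 1.31. The means were 7.24 ± 0.45 and 5.57 ± 0.66 (SD, n = 3 each), a difference of 1.67 ± 0.33 (SE), or 3.17-fold. The call was lost when either replicate 2 was left out: 1.57 without that of the large follicles and 1.60 without that of the small follicles. The array order of TAGLN in small follicles was the reverse of that of the 3' minus 5' index. In large follicles it was not, since replicate 2 had the lowest index and replicate 3 the highest TAGLN. With the index as a covariate the difference of TAGLN was 0.62 ± 0.28 and did not pass. The index was lower in every large-follicle array, so a fit with it cannot fully separate it from follicle size.

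CNN1, calponin 1, a smooth muscle inhibitor of actomyosin, had a smaller and tighter difference. It read 6.47, 6.36 and 6.54 in large-follicle arrays and 5.83, 5.80 and 5.75 in small-follicle arrays. The groups were 0.53 apart, more than the spread within either group (0.18 and 0.08). The means were 6.46 ± 0.09 and 5.79 ± 0.04 (SD, n = 3 each), a difference of 0.66 ± 0.09 (SE), or 1.58-fold. It was 0.77 ± 0.14 with the index as a covariate, where it no longer passed the threshold, and it passed in all 6 fits that each left out an array.

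ACTA2, smooth muscle actin, read 6.02, 6.61 and 6.61 in large-follicle arrays and 5.22, 6.10 and 5.67 in small-follicle arrays. Large-follicle replicate 1 fell just below small-follicle replicate 2, so the groups overlapped by 0.08. The difference was 0.75 ± 0.24 (SE) and did not pass the threshold, although it was larger than that of CNN1. It passed without small-follicle replicate 2 (0.97), and in no other fit that left out an array (0.53 to 0.95). The difference was 0.38 ± 0.37 in the fit that adds the 3' minus 5' index.

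MYLK, the kinase that switches myosin on, lay the other way in both of its probe sets. The brighter read 8.69, 9.23 and 8.53 in large-follicle arrays and 9.49, 9.71 and 9.58 in small-follicle arrays, a difference of -0.78 ± 0.18 (SE), 1.71-fold lower. The dimmer read 7.64, 8.28 and 7.52 against 8.32, 8.57 and 8.68, a difference of -0.71 ± 0.20 (SE). Large-follicle replicate 2 came closest to the small-follicle arrays in both, to within 0.26 and 0.04. The brighter probe set passed in 1 of the 6 fits that each left out an array, the fit without large-follicle replicate 2 (-0.98), and not without large-follicle replicate 1 (-0.71) or 3 (-0.63) nor when small-follicle replicate 1 (-0.83), 2 (-0.72) or 3 (-0.78) was left out. The dimmer passed without large-follicle replicate 2 (-0.94). With the index as a covariate the differences were -1.06 ± 0.27 and -1.21 ± 0.24, and neither passed.

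TPM1 and TPM2, the tropomyosins of the thin filament, overlapped between follicle sizes in all 4 probe sets. The dimmer probe set of TPM1 read 10.86, 11.27 and 10.51 in large-follicle arrays and 10.09, 10.27 and 10.79 in small-follicle arrays, a difference of 0.50 ± 0.23 (SE). Its brighter probe set, with a mean above that of 99.5% of probe sets, read 13.24, 13.40 and 13.13 against 13.28, 13.23 and 13.46, a difference of -0.07 ± 0.11 with a 95% interval of -0.32 to 0.19. Small-follicle replicate 3 read higher than all 3 large-follicle arrays in the brighter one, and higher than large-follicle replicate 3 in the dimmer one. The brighter probe set of TPM2 read 11.43, 11.99 and 11.47 against 10.99, 11.13 and 11.75, a difference of 0.34 ± 0.22 (SE), and the dimmer 7.71, 8.30 and 7.85 against 7.62, 7.71 and 7.89, a difference of 0.21 ± 0.16. Small-follicle replicate 3 lay above 2 of the 3 large-follicle arrays in both. With the index as a covariate the 3 differences that had been positive were negative, at -0.15 ± 0.24 for TPM1 and -0.39 ± 0.15 and -0.21 ± 0.18 for TPM2.

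CALD1, caldesmon, read 4.20, 3.98 and 4.14 in large-follicle arrays and 4.06, 4.11 and 4.12 in small-follicle arrays, 0.01 ± 0.10 (SE) apart, with a 95% interval of -0.21 to 0.23. Only 29.1% of probe sets had a lower mean, so this too is a dim probe set.

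**Figure D2:**
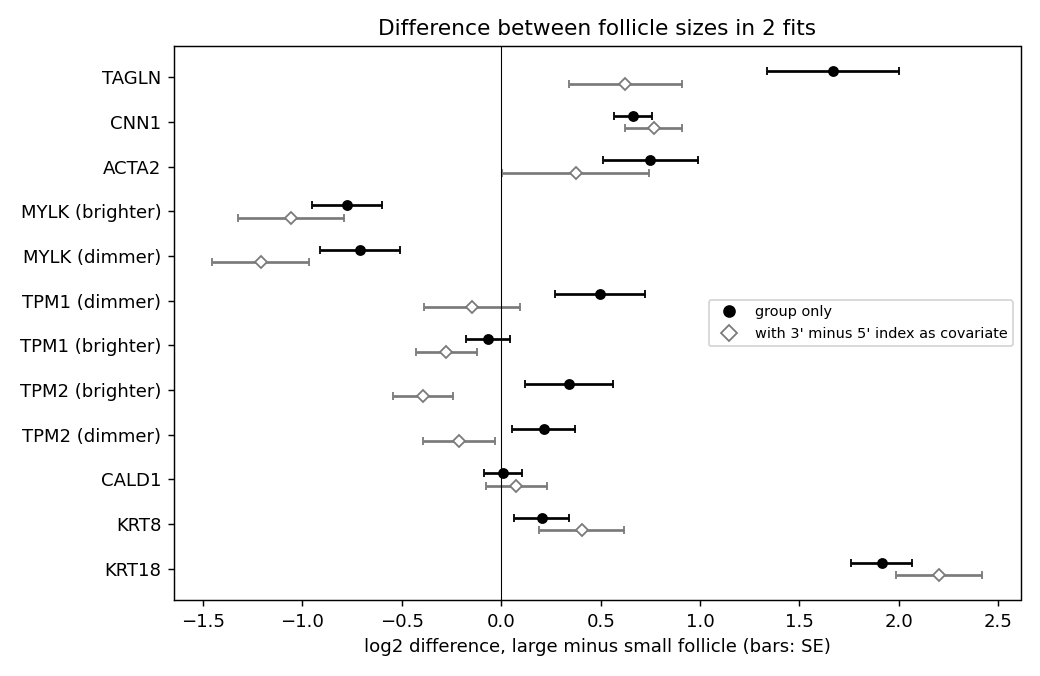
Log2 difference between large- and small-follicle arrays (horizontal axis) for the 12 probe sets, with bars for the SE, in a fit with the group alone (filled circles) and in a fit that adds the 3' minus 5' index (open diamonds). KRT18 goes from 1.91 to 2.20, TAGLN from 1.67 to 0.62, and TPM2 changes sign.

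Within a group the members split. In large-follicle replicate 2, which had the lowest index of its group, the 6 probe sets of TPM1, TPM2 and MYLK were each the highest of the 3 large-follicle arrays, by 0.14 to 0.47 above the group mean. CNN1, CALD1, KRT8 and KRT18 were each the lowest there, by -0.10, -0.13, -0.29 and -0.36. In small-follicle replicate 3, again the array with the lowest index of its group, the 4 tropomyosin probe sets, the dimmer MYLK probe set, CALD1 and TAGLN were the highest of the 3 arrays. TAGLN stood 0.72 above its group mean on that array and the brighter probe set of TPM2 0.46. CNN1, KRT8 and KRT18 were the lowest there too, but by no more than 0.05. TAGLN and ACTA2 followed a different order in large follicles, where replicate 1 was the lowest for both, at -0.51 and -0.39.

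**Figure D3:**
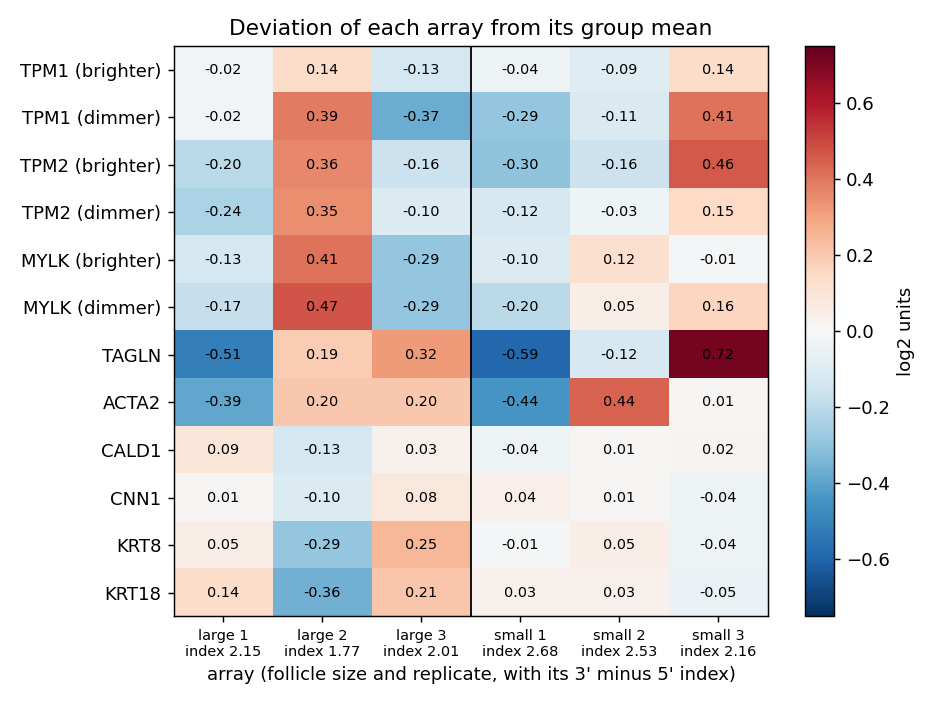
Deviation of each array (columns, with its 3' minus 5' index) from the mean of its own group, in log2 units, for the 12 probe sets (rows); red is above and blue below the group mean. Tropomyosin and MYLK are red on large-follicle replicate 2 while CNN1, KRT8 and KRT18 are blue, and tropomyosin and TAGLN are red on small-follicle replicate 3.

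Related genes outside the 10 members were read from the probe set with the highest mean. Tropomyosin 4 (TPM4) rose with follicle size, from 11.08, 11.03 and 11.07 in small-follicle arrays to 11.62, 11.91 and 11.64 in large-follicle arrays, by 0.66 ± 0.11 (SE; limma, adjusted p = 0.00709). No small-follicle array reached the large-follicle range. The difference between TPM4 and the other tropomyosins was not tested. TPM3 read 0.04 ± 0.13. The transgelin paralogue TAGLN2 rose by 0.52 ± 0.11 (limma, adjusted p = 0.0199), with 7.91, 7.76 and 7.84 against 7.19, 7.25 and 7.50. Its call was lost without large-follicle replicate 1 (0.49) or 3 (0.52) or small-follicle replicate 1 (0.46) or 2 (0.49). The other calponins did not pass: CNN2 read 0.38 ± 0.12 (adjusted p = 0.0766), with no overlap between groups, and CNN3 read -0.05 ± 0.12. With the index as a covariate TPM4 read 0.53 and TAGLN2 0.39, and neither passed.

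**Figure D4:**
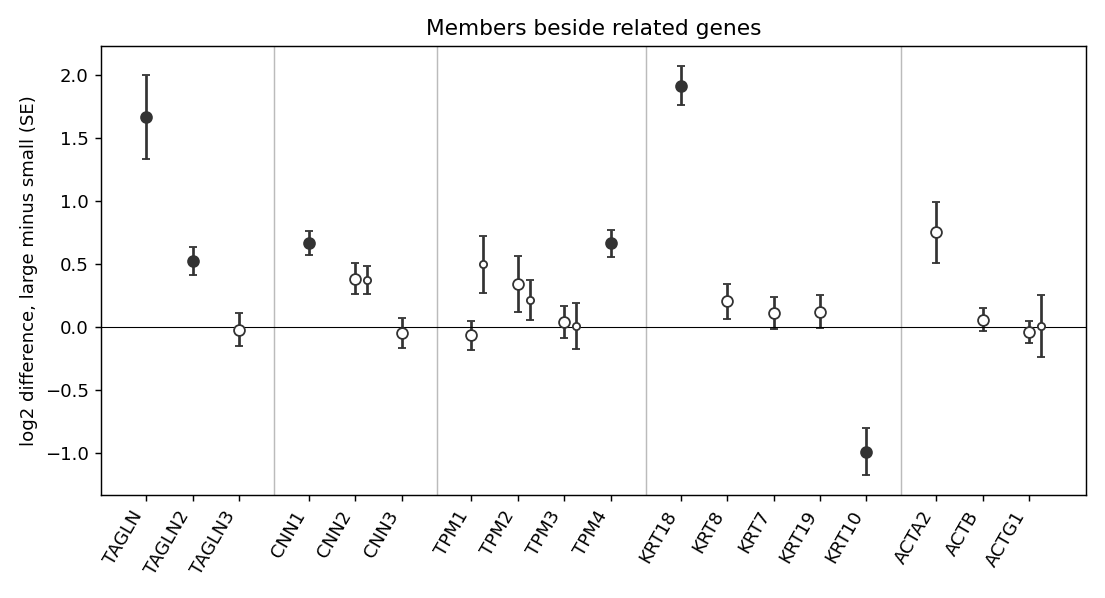
Log2 difference between large- and small-follicle arrays with its SE (vertical axis) for members and related genes, by family; filled points passed the adjusted threshold, and smaller points are further probe sets of the same gene. TAGLN, TAGLN2, CNN1, TPM4 and KRT18 lie above 0 as filled points, and KRT10 lies below.

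Of 18 measured genes of smooth muscle outside the members, 2 rose, TPM4 and TAGLN2, and the other 16 did not pass. Counted over 1 probe set per gene, 7.08% of all genes were higher and 8.30% lower by the same rule, 15.4% in all. The list's median difference was 0.14, and at an unadjusted p under 0.05 in limma 7 of the 18 were higher and 0 lower. MYH11, the smooth muscle myosin heavy chain, read -0.39 ± 0.31 (SE): its values were 8.95, 9.80 and 9.29 in large-follicle arrays and 10.18, 9.03 and 9.99 in small-follicle arrays, which overlapped. DES, the muscle intermediate filament desmin, read 0.19 ± 0.21, with groups that overlapped. In sign 14 of the 18 were higher, and the groups did not overlap in 8, all of them higher in large-follicle arrays. Of all genes, read from 1 probe set each, 36.5% had such a gap, but in either direction. Of all probe sets, 14.7% had such a gap as higher in large-follicle arrays, and that share was not computed per gene. ACTG2, the enteric smooth muscle actin, was not analysed here.

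Of 25 genes of the general actin cytoskeleton, 1 rose and 2 fell, a share near the 15.4% of all genes and not a result about the list, and the median was -0.02. Radixin (RDX, -0.51 ± 0.11) and moesin (MSN, -0.37 ± 0.09), which tie actin to the membrane, fell, and palladin (PALLD, 0.35 ± 0.09), an actin cross-linker, rose. MSN and PALLD passed in 0 of the 6 fits that left out an array, in which MSN ran from -0.38 to -0.34 and PALLD from 0.31 to 0.38. RDX passed in 2 of 6, between -0.59 and -0.44. The cytoplasmic actins ACTB (0.06 ± 0.09) and ACTG1 (-0.04 ± 0.09) did not pass, with 95% intervals of -0.15 to 0.27 and -0.24 to 0.16. MYH9, a non-muscle myosin heavy chain, read -0.23 ± 0.17 at a low signal.

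SRF, the transcription factor behind much of this programme, read 5.93, 5.96 and 6.14 against 5.86, 5.71 and 5.46, with groups apart but a difference of only 0.33 ± 0.13 (SE) that did not pass. Of the 7 measured genes of SRF and factors that act with it, GATA6 rose by 0.62 ± 0.11, with a call kept without any single array, and KLF4, known to oppose smooth muscle genes, fell by 1.41 ± 0.33, from 6.89, 7.03 and 5.64 to 5.21, 5.26 and 4.86. The KLF4 call held in 1 of 6 fits, that without small-follicle replicate 3 (-1.85), and the difference was -1.16 at its smallest. With the index as a covariate KLF4 read -0.61. The list's median was 0.33.

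Of 15 other keratins and intermediate filament genes, 2 fell and 0 rose in limma (0 rose at an unadjusted p under 0.05), with a median of -0.04. The share that passed was near the 15.4% of all genes and is not a result about the list. KRT10, an epidermal acidic keratin, fell by 0.99 ± 0.19 (SE; limma, adjusted p = 0.0122), from 7.59, 7.69 and 7.84 to 6.27, 6.92 and 6.97, and LMNB1, a nuclear lamin that is high in dividing cells, fell by 1.13 ± 0.14. Both calls held without any single array. The simple keratins KRT7 (0.11 ± 0.13) and KRT19 (0.12 ± 0.13) did not pass and had low signals, and vimentin (VIM), the main intermediate filament of granulosa cells, was bright and read -0.04 ± 0.09, with a 95% interval of -0.26 to 0.18. Of 8 genes of desmosomes and keratin linkers 3 fell: the plakophilin PKP2 (-0.53 ± 0.10), the keratin-binding trichoplein TCHP (-0.44 ± 0.10) and the desmocollin DSC2 (-0.78 ± 0.21). The list's median was -0.20, and 8.30% of all genes fell by the same rule. Only the PKP2 call held without any single array. TCHP held in 1 of 6 fits (-0.52 to -0.39) and DSC2, a dim probe set, in 2 of 6 (-0.92 to -0.51) and under 2 of 3 other scalings. Other probe sets of PKP2 (0.003) and TCHP (-0.11 and -0.05) did not pass.

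**Figure D5:**
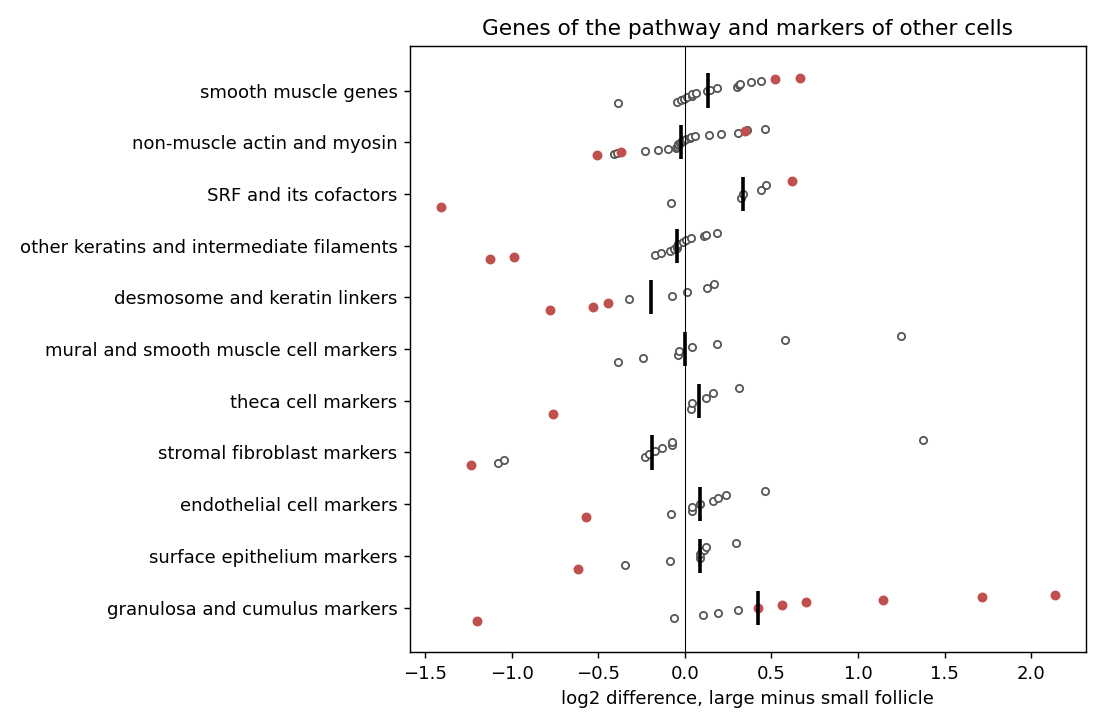
Log2 difference between large- and small-follicle arrays (horizontal axis) for each gene of 5 pathway lists and 6 lists of cell type markers; red points passed the adjusted threshold, open points did not, and the black bar is the list's median. The median is 0.14 for smooth muscle genes and 0.003 for mural and smooth muscle cell markers.

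TAGLN, CNN1 and ACTA2 are also abundant in smooth muscle, pericytes, theca and stroma, so markers of these cells are given beside them. In bulk RNA, fewer cells of a type and less RNA per cell cannot be told apart. Of all genes, read from 1 probe set each, 7.08% were called higher and 8.30% lower. A single call in a marker list is therefore not read as a result about that list. Of 8 mural and smooth muscle markers, of which MYH11, DES and LMOD1 are also in the smooth muscle list, 0 passed in limma (1 did at an unadjusted p under 0.05), 4 were higher in sign, and their mean lay between 6.08 and 6.38 in large-follicle arrays and 6.04 and 6.08 in small-follicle arrays. The pericyte marker RGS5 read 2.27 to 2.86 over all arrays and PDGFRB 3.59 to 4.02, both dim. Other markers of the list were brighter. MCAM (-0.03 ± 0.12) and CSPG4 (0.58 ± 0.30) had means above those of 88.4% and 64.4% of probe sets, and neither passed. KCNJ8, a channel subunit of pericytes, read 6.84, 7.52 and 6.87 against 4.93, 6.32 and 6.24, a difference of 1.25 ± 0.36 (SE) that did not pass. Its lowest array, small-follicle replicate 1, was also the lowest for TAGLN and ACTA2, and the part of such cells in those results was not tested.

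Of 10 stromal fibroblast markers 1 fell, FBLN1 by 1.24 ± 0.20, though its other probe set read -0.16, and 1 of 10 was higher in sign, PDGFRA (1.37 ± 0.42, not passed). Other, dimmer probe sets of PDGFRA read 0.07 and -0.06. The stromal mean was 6.01, 5.49 and 5.37 in large-follicle replicates 1, 2 and 3 and 5.57, 5.78 and 6.37 in small-follicle replicates 1, 2 and 3. It was highest on small-follicle replicate 3, where the collagen COL3A1 read 7.33 and the proteoglycan LUM 9.07 and where TAGLN was highest of its group. In large follicles it was highest on replicate 1, where TAGLN was lowest. Of 6 theca markers 1 fell, NR2F2 by 0.76 ± 0.11, and the mean lay between 6.31 and 6.41 in large-follicle arrays and 6.26 and 6.50 in small-follicle arrays. CYP17A1, the theca androgen enzyme, read 4.61 to 5.38 in large-follicle and 4.71 to 4.90 in small-follicle arrays. INSL3 (0.03 ± 0.29) and HSD3B1 (0.16 ± 0.16) did not pass either, but both were bright. Their means were above those of 89.8% and 90.2% of probe sets.

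Among 9 endothelial markers 1 fell, TEK by 0.57 ± 0.09 at a low signal, and the mean was 3.91 to 4.10 against 3.88 to 4.05. Among 8 markers of the surface epithelium, which expresses KRT8 and KRT18 too, 1 fell, KLK10 by 0.62 ± 0.15 at a low signal (2 of 6 fits, -0.71 to -0.45), and the mean was 4.22 to 4.36 against 4.31 to 4.37. The epithelial adhesion gene EPCAM read 2.16 to 2.49 on all arrays, and only 1.8% of probe sets had a lower mean. CDH1, another adhesion gene of the list, was brighter, with a mean above that of 68.4% of probe sets. It read -0.35 ± 0.16 and did not pass. All 9 leukocyte markers were higher in sign and 2 rose, CORO1A by 0.62 ± 0.16 and LCP1 by 0.89 ± 0.24 (2 of 6 fits each, 0.50 to 0.76 and 0.69 to 1.11, and 2 and 1 of 3 other scalings). The leukocyte mean was 5.57, 4.63 and 4.30 in large-follicle replicates 1, 2 and 3 and 4.04, 3.90 and 4.71 in small-follicle replicates 1, 2 and 3. In small follicles it was highest on replicate 3, as TAGLN was, while KRT18 was lowest there. In large follicles it was highest on replicate 1 and lowest on replicate 3, where TAGLN and KRT18 were highest. The part of leukocytes in the differences of KRT18 and TAGLN was not tested. Of 7 oocyte markers 1 fell, KIT by 1.43 ± 0.20, and the mean, which includes KIT, was 4.53 to 4.70 against 4.67 to 4.94. KIT had a mean above that of 81.1% of probe sets. The 6 that did not pass were dimmer, at 9.7% to 39.6%, and their differences ran from -0.05 to 0.16.

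Of the 11 granulosa and cumulus markers, 6 rose and 1 fell, with a median of 0.42. Those with the smallest p were INHBA (1.14 ± 0.10), CYP11A1 (1.72 ± 0.16), CYP19A1 (2.14 ± 0.22) and NR5A2 (0.70 ± 0.11), and GATM fell by 1.20 ± 0.29. The GATM call was lost without small-follicle replicate 1 (-1.23) or 3 (-1.01). The other calls were FSHR (0.56), which held in 1 of 6 fits (0.46 to 0.67), and INHA (0.42), which held in 2 of 6 (0.38 to 0.45). With the index as a covariate CYP11A1, CYP19A1 and INHBA still passed, as KRT18 did among the members. AMH, a hormone of the granulosa lineage, read -0.06 ± 0.10 and did not pass.

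The genes whose values were most like those of TAGLN and of KRT18 over the 6 arrays were found among 997 genes that ranged over at least 1 log2 unit. For TAGLN they were PDK3, an inhibitor kinase of pyruvate dehydrogenase (Pearson r = 0.99), FAM241B (0.977), MORN4 (0.976), SPSB1 (0.976) and ZFP36, an RNA-binding protein that promotes mRNA decay (0.976). For KRT18 they were MOSPD3 (0.991), the adhesion protein NRCAM (0.988), EAF2 (0.987), ZMYND12 (0.987) and ANKRD1 (0.986). These r values are a description over 6 arrays that share the group difference. ANKRD1, a known target of mechanical signalling, averaged 10.05 against 6.84.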

How the data were processed

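The authors deposited log2 probe set signals of 6 one-colour arrays, for which the submitters' processing notes name RMA without its software or settings. Signals ran from 1.80 to 14.39, and array medians from 5.64 to 5.68. Control probe sets (112) entered no test, which left 24016. Genes were named from the platform annotation (13292 probe sets with 1 symbol), and a match of gene identifiers to RefSeq changed 0 symbols. Large minus small follicle differences came from limma 3.58.1 under R 4.3.3 (lmFit, eBayes, no block, 2-sided), without a filter on low values, and calls were made at a Benjamini-Hochberg adjusted p of 0.05 over the whole array. The number of arrays limits the precision. Members and lists were chosen with earlier results of these data known. The text names all members, 15 fixed related genes, the called genes of each list where 4 or fewer were called and otherwise the 4 with the smallest p in each direction, and the 5 genes most like TAGLN and KRT18. RGS5, PDGFRB, MCAM, CSPG4, KCNJ8, PDGFRA, COL3A1, LUM, CYP17A1, INSL3 and HSD3B1 were named after their values were seen. So were EPCAM, CDH1, FOXL2, FSHR, INHA, CLDN5 and AMH. The fit was tested on simulated data, and other scalings, filters, priors, covariates and left-out arrays were tried. The results of 1 list are not reported here, although its genes count in the totals over lists. Figures were drawn with matplotlib 3.10.9.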

Additional observations from a re-analysis of the deposited data

How the results depend on the processing

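Counts of probe sets past the threshold in limma moved with the setting. Adding the 3' minus 5' index gave 215 calls among all probe sets (99 higher, 116 lower), 1 among member probe sets (1 higher, 0 lower, with 3 lower at an unadjusted p under 0.05) and 4 among list genes (4 higher, 0 lower, with 17 lower at an unadjusted p under 0.05), of which CLDN5 had no call without it (0.24, and 0.88 with it). An adjusted threshold of 0.01 left 1063 of all (528 higher, 535 lower), 2 members (0 lower, 2 at an unadjusted p under 0.05) and 11 list genes (5 higher, 6 lower). A threshold of 0.10 gave 25 list genes higher and 2 member probe sets lower, and ACTA2 then passed as higher. Array weights, a trended robust prior and filters at the lower quartile and at the median each gave 2 member probe sets lower, both of MYLK. The labels number the replicates but do not say whether same-numbered arrays were paired. Over all probe sets, deviations of same-numbered arrays from their group means correlated at -0.002, -0.054 and -0.343. With 3 arrays per group these values cannot settle whether the arrays were paired. A block on the replicate number lowered the SE of TAGLN from 0.33 to 0.16 and that of ACTA2 from 0.24 to 0.13. With the replicate number as a block, all calls were 1964 (1034 lower), list genes 17 (8 higher, 9 lower), and ACTA2 (0.75) passed beside the 4 member probe sets. Leaving out 1 array gave 1615 to 2477 calls (787 to 1142 higher, 828 to 1337 lower), 3 to 4 member probe sets (2 to 3 higher, 0 to 2 lower, with 2 lower at an unadjusted p under 0.05 in each fit) and 18 to 22 list genes (7 to 12 higher, 10 to 11 lower). Fewer arrays were fitted there, and the cause of the other shifts was not tested.

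Of 212 differences of member probe sets under alternatives, 182 kept direction and side of the threshold, 12 lost the call, 9 gained it and 9 changed sign, none of them called. The sign changes were in CALD1 under quantile (-0.016) and cyclic loess scaling (-0.019) and leaving out 1 array (-0.037 to 0.073), in the brighter TPM1 probe set leaving out 1 array (-0.138 to 0.002), and with the index in TPM1 (-0.148) and TPM2 (-0.392 and -0.211). Of the 30 called list genes, 15 kept their call without any single array and 3 with the index, and all 30 kept their sign with it. RMA gives no detection call, so the dim CALD1 and KRT8 probe sets set no limit on change.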
